A study of Mus musculus with 61 samples.

Results

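The nuclear genes that encode the mitochondrial respiratory chain and the ATP synthase were followed across 6 inbred mouse strains and 5 brain regions. The members are all probe sets annotated to exactly 1 gene whose symbol starts with Nduf, Sdh, Uqcr, Cox4, Cox5, Cox6, Cox7, Cox8 or Atp5, so that the rule reads symbols and no signal. It gave 185 probe sets of 94 genes, out of 45037 probe sets on the array, 34945 of which name a single gene. A further 10 probe sets that name several genes, at least one of them with such a symbol, were left out. Of the 185 probe sets, 184 exceeded the floor set for low signals on at least 1 array and were tested, and 1 probe set of Ndufb9 did not.

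RNA from 5 tissues, namely pituitary, periaqueductal gray (pag), bed nucleus of the stria terminalis (abbreviated bnst), hypothalamus and hippocampus, was hybridised to 61 one-colour Affymetrix mouse 430 2.0 arrays. All mice were wild type males of 8 weeks, of the strains FVB/NJ, A/J, 129S6/SvEvTac, C3H/HeJ, C57BL/6J and DBA/2J. Per the study's methods, the 129S6/SvEvTac mice came from Taconic Farms and those of the other strains from the Jackson Laboratory. For 129S6/SvEvTac, differences of strain and of supplier thus cannot be told apart. Each of the 30 groups of strain and region had 2 arrays, except the bnst of C3H/HeJ with 3, and an array held tissue of 1 mouse (hippocampus), 1 or 2 mice (hypothalamus, pag), 2 or 3 mice (bnst) or 5 mice (pituitary). Replicate arrays came from separate animals or separate pools of them, per the study's methods, and with pools the spread between arrays is that of pools. In the bnst the first replicate of every strain pooled 2 mice and the second 3. The labels call all tissue snap frozen, whereas the methods describe freezing for the hippocampus and a preserving buffer for the smaller structures, so that a difference of the hippocampus from the other regions and one of preservation cannot be told apart.

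The respiratory chain passes electrons from NADH (complex I) and succinate (complex II) through complex III to oxygen at complex IV, and the proton gradient that complexes I, III and IV build up drives the ATP synthase, with its catalytic F1 head and its membrane part Fo. The genes studied here are all nuclear, whereas some core subunits of these complexes are encoded by mitochondrial DNA and belong to no member. Neurons draw most of their ATP from this pathway. Many of its nuclear genes are known targets of the transcription factors NRF1, GABP (of the ETS family), ERR alpha, Sp1 and YY1, with PGC-1 alpha as a coactivator.

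Promoter sequences of RefSeq (GRCm38.p6, 250 bases before to 50 after a start site) were matched by gene identifier to 78 of the 94 genes. The NRF1 motif (GCGC, any base, then TGCGC), searched on both strands like all others, was found in the promoters of 19 of these genes (24.4%), against 5.19% of the promoters of all 27025 genes. The ETS motif CCGGAAG was found in 22 (28.2%, against 9.93% of all), the YY1 motif AAGATGGC in 10 (12.8%, against 3.19%), the Sp1 motif GGGCGG in 39 of the 78 (against 38.2% of all), the ERR motif TCAAGGTCA in 2 (2.56%, against 0.466%) and the CREB motif TGACGTCA in 3 (3.85%, against 2.03%). A match is a stretch of letters and was not tested as a binding site. Promoters to print were picked by hand among genes named in the results. Ndufaf5, Uqcrc1 and Sdhaf4 differed between regions, and probe sets of Ndufs5, Uqcr10 and Ndufc2 differed between strains. Ndufaf5, Uqcrc1 and Sdhaf4 all hold the NRF1 motif, whereas Cox5a, Sdhaf1 and Atp5e, which also differed between regions, lack it and are not shown. The 6 promoters below are thus examples. Each runs from 150 bases before to 30 bases after the start, 5′ to 3′ on the strand of the gene, and capitals mark the NRF1 motif and, in Sdhaf4, also the Sp1 motif, with matches on the other strand shown as their complement (as in Ndufs5 and the Sp1 match of Sdhaf4). Ndufaf5 lies at chr2:140170496-140170675 (plus strand), Uqcrc1 at chr9:108936498-108936677 (plus), Sdhaf4 at chr1:24005611-24005790 (minus), Ndufs5 at chr4:123718157-123718336 (minus), Uqcr10 at chr11:4704315-4704494 (minus) and Ndufc2 at chr7:97399853-97400032 (plus). The stretches of Uqcr10 and Ndufc2 hold none of the 6 motifs.
Ndufaf5: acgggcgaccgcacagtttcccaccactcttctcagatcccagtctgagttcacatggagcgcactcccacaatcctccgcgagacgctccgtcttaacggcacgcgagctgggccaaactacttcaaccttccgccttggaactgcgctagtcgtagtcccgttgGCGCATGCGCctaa
Uqcrc1: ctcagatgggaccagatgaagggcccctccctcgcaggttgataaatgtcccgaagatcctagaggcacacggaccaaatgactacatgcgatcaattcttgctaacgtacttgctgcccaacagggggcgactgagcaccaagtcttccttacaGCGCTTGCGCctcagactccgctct
Sdhaf4: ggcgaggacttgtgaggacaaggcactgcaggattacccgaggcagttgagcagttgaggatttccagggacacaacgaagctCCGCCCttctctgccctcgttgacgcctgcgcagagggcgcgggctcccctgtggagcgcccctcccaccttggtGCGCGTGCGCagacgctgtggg
Ndufs5: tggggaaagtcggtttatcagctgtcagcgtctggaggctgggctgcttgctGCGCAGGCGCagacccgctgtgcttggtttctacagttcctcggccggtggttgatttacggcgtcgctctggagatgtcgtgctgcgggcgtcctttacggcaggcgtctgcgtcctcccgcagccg
Uqcr10: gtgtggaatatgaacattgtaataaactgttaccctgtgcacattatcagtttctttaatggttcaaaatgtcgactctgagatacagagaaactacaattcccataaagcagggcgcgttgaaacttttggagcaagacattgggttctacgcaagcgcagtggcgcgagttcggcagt
Ndufc2: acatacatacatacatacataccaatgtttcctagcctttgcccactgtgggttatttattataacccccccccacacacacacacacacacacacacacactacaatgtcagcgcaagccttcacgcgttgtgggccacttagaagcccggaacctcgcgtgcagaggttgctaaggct

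Values are the signals deposited by the authors, linear intensities with means of 180.5 to 200.5 per array. Array medians were 42.6 to 67.1, replicate arrays correlated with a median r of 0.993, and 5.36% of all values lay below 0. Markers fitted the labels: summed signals of 8 pituitary hormones and related genes were 50150 to 71280 in the pituitary, against 1681 to 9757 in the other regions, and 3 markers of serotonin and midbrain neurons summed to 1605 to 3166 in the pag, against -16.4 to 29.3 elsewhere. Hippocampal excitatory neuron markers summed to 7044 to 9211 in the hippocampus, against 143 to 1237 elsewhere. The bnst arrays also held markers of hypothalamic neurons (4685 to 10830, against 10960 to 18450 in the hypothalamus) and, unevenly, of choroid plexus (182 to 9471). Replicate 2 of the C3H/HeJ pituitary stood apart with a summed oligodendrocyte signal of 4161, against 75.9 to 226 on the other pituitary arrays.

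The members were among the brighter features of the array. Their mean signals over all arrays had a median of 1055, 101 of the 185 probe sets exceeded 1000, and 134 exceeded 200. The highest mean, 4672, belonged to a probe set of Uqcrb, a complex III subunit. Of the 94 genes, 53 had several probe sets, and 48 members carry the suffix _s_at or _x_at, whose probes can also read other transcripts, so their values are less certain. The complex IV subunit isoforms known from muscle, testis or lung (Cox4i2, Cox6a2, Cox6b2, Cox7a1, Cox7b2, Cox8b, Cox8c) were dim, and the highest mean of their 9 probe sets was 143.

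More members differed between regions than between strains. With limma, 167 of the 184 members passed the F test of region (adjusted p under 0.05), against 71.7% of all 44065 probe sets tested, and 130 passed that of strain, against 39.2% of all. The interaction of strain and region passed in 43 members, against 11.3% of all. Without the pituitary arrays the F tests called 146 members for region (51.3% of all), 85 for strain (29.6%) and 4 for the interaction (2.35%). Under the regression on strain and region that the methods describe, 151 of 185 members were region-specific (60.6% of all probe sets) and 18 strain-specific (8.87% of all). A probe set went to the factor with the smaller p. The study's filter on Present calls was not applied, so these shares are not those it published. All 9 probe sets of the F1 head, all 16 of the complex I core subunits and all 10 of the complex I assembly factors passed the F test of region.

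As a group, the members lay lowest in the pituitary and highest in the pag. The median deviation of the 184 members on an array, on the log2 scale and relative to each probe set's mean over all groups, was -0.45 to -0.11 on the 12 pituitary arrays (median -0.23). It was 0.115 to 0.31 on the 12 pag arrays (median 0.175), -0.11 to 0.16 in the bnst, -0.06 to 0.16 in the hypothalamus and -0.12 to 0.03 in the hippocampus, with a replicate SD of 0.05. All pituitary arrays were below all pag arrays, and the ranges of the bnst, the hypothalamus and the hippocampus overlapped one another. Over all probe sets tested, the same deviation ran from -0.05 to 0.21 in the pituitary and from -0.07 to 0.12 in the pag. In bulk tissue, fewer cells of a type and less RNA per cell cannot be told apart.

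**Figure D1:**
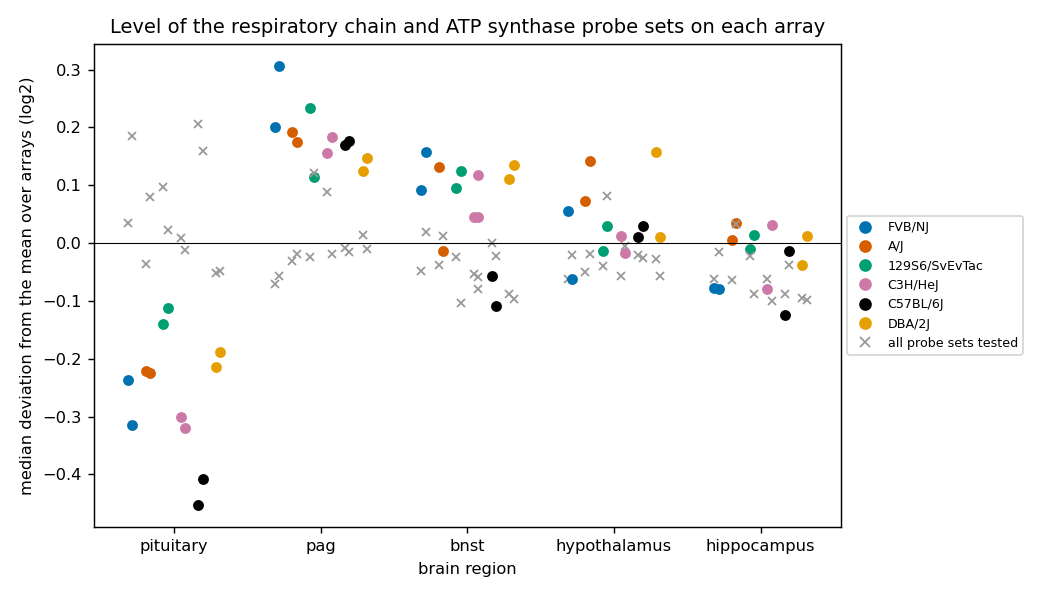
Median log2 deviation of the 184 respiratory chain and ATP synthase probe sets on each array (y axis) by brain region (x axis), coloured by strain; grey crosses give the median over all probe sets tested on the same array. The 12 pituitary arrays lie between -0.45 and -0.11 and the 12 pag arrays between 0.115 and 0.31.

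The pituitary differed from the other 4 regions in 157 of the 184 members. By limma, 118 were lower and 39 higher, against 25.4% of all probe sets lower and 40.6% higher. The median difference of the members was -0.31, against 0.10 for all probe sets tested. The direction was the same in all 6 strains for 127 of the 157, and 41 members had pituitary signals that did not overlap those of any other array (14.1% of all probe sets). Among the 134 members with a mean above 200 the split was 106 lower and 21 higher, with a median of -0.41, whereas among the 50 dimmer ones it was 12 and 18. Without replicate 2 of the C3H/HeJ pituitary, 116 members were lower. With each array scaled to one median, 125 were lower and 18 higher (29.6% and 32.5% of all).

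Against single regions, 122 members were lower and 27 higher in the pituitary than in the pag (25.5% and 34.6% of all; median -0.39), 117 and 32 than in the bnst (23.5% and 38.5%; -0.32), 116 and 26 than in the hypothalamus (23.7% and 36.6%; -0.26) and 105 and 43 than in the hippocampus (23.5% and 39.2%; -0.21). These comparisons share the pituitary arrays. Within single strains, against the strain's own other regions, 115 members were lower in C57BL/6J (19.3% of all), 105 in FVB/NJ (18.5%), 104 in C3H/HeJ (18.9%), 103 in A/J (19.3%), 94 in DBA/2J (19.5%) and 78 in 129S6/SvEvTac (18.0%).

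Cell type markers differed in both directions. Summed pan-neuronal signals (4 genes, all called lower) were 3253 to 4784 in the pituitary, against 8412 to 14170 in the other regions. Astrocyte markers (4 genes, all lower) summed to 263 to 571, against 3739 to 6816. All 8 endocrine markers were called higher. Of 4 smooth muscle and pericyte markers 3 were higher and 1 lower, and of 3 endothelial markers 2 were higher and 1 lower. The part of these cell types in the lower signals was not tested.

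The complex I core had the lowest median of all roles. Of the 16 probe sets of its core subunits, which carry the flavin and the iron-sulfur clusters, 15 were lower in the pituitary and 1 was higher, with a median of -0.60 (on the log2 scale, as all differences). Examples, chosen like others outside the selection rule after their values were seen, are Ndufv2 (-0.86, -0.82 and -0.64 for its 3 probe sets) and Ndufs7 (-0.74 and -0.72). The exception was 1 of the 6 probe sets of Ndufs8, at 0.53, while the other 5 lay between -0.43 and -0.35. Of 61 probe sets of the accessory subunits 37 were lower and 12 higher (median -0.27), among them Ndufb8 at -1.16 and Ndufb9 at -1.12 and -0.87, and the highest value was that of Ndufa1, at 0.48. Ndufa4, counted here by its symbol although it is now known as a subunit of complex IV, was at -0.73 in the pituitary and 0.32 in the pag.

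The largest difference of any member was that of Ndufaf5, an assembly factor that modifies the core subunit Ndufs7. Its signal was 33.1 to 78.5 in the pituitary (median 59.8, 12 arrays), against 170 to 382 in the other regions (median 257, 49 arrays), so that the groups did not overlap. The difference was -2.13 ± 0.06 (SE; limma, adjusted p = 3.3e-28), lower in 6 of 6 strains. In the 6 strains' pituitaries the arrays read 33.1 and 58.7 (FVB/NJ), 61.0 and 49.3 (A/J), 69.4 and 72.7 (129S6/SvEvTac), 54.3 and 65.2 (C3H/HeJ), 43.5 and 54.2 (C57BL/6J) and 73.4 and 78.5 (DBA/2J). All 12 thus stayed far below the lowest value of the other regions, and no strain was an exception. Of the 10 probe sets of complex I assembly factors, 7 were lower and 3 higher (median -0.29).

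Complex IV came next. Cox5a, a nuclear subunit that lies close to the mitochondrially encoded core, was lower with all 3 of its probe sets, at -1.62, -1.55 and -1.40 (SE 0.03 to 0.04), each without overlap and lower in 6 of 6 strains. Probe set 1448153_at had 853 to 1277 in the pituitary (median 1004), against 2243 to 3889 in the other regions (median 3032; limma, adjusted p = 5.1e-31). Of the 26 probe sets of the subunits found in most tissues 18 were lower and 6 higher (median -0.39). The higher ones included all 3 of Cox7a2l, which is known to join complexes III and IV into supercomplexes, at 0.55, 0.56 and 0.60.

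Complexes II and III held both directions. Sdhb, the iron-sulfur subunit of complex II, was at -1.20, and 6 of the 9 complex II probe sets were lower and 1 was higher (median -0.23). Its assembly factors ran the other way, with 4 of 6 probe sets higher, 1 lower and a median of 0.20. Sdhaf1, which helps to place the iron-sulfur clusters of Sdhb, had 286 to 434 in the pituitary (median 380), against 121 to 244 in the other regions (median 200), without overlap. Its difference was 0.99 ± 0.05 (limma, adjusted p = 1.6e-20), higher in 6 of 6 strains, whereas Sdhaf3, which serves the same subunit, was at -0.88 with its brighter probe set. Sdhaf4, a chaperone of Sdha, was at 0.66.

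In complex III, 9 of 16 probe sets were lower and 1 was higher (median -0.23). Uqcrc1, one of the large core proteins, was at -1.12 and did not overlap with the other regions. The 2 probe sets each of Uqcrh and Uqcrb lay between -0.02 and 0.04 and were not called.

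The ATP synthase was lower with exceptions on both sides of the complex. In the F1 head, 7 of 9 probe sets were lower and 2 higher (median -0.26), and in Fo and the stalk 16 of 22 were lower and 5 higher (median -0.34). Atp5k, subunit e of Fo, was lower with all 3 probe sets (-1.25, -0.81 and -0.68), and Atp5o, which links the stalk to F1, was at -1.17 and -0.92. Probe set 1434053_x_at of Atp5k had 346 to 597 in the pituitary (median 486), against 987 to 1360 elsewhere (median 1101), without overlap (limma, adjusted p = 3.8e-29).

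Atp5e, the epsilon subunit of F1, had the opposite direction. It read 1205 to 1706 in the pituitary (median 1378), against 726 to 1041 in the other regions (median 839), a difference of 0.73 ± 0.03 in 6 of 6 strains (limma, adjusted p = 6.8e-23). The ring subunit c is encoded by 3 genes, which did not move together: Atp5g2 was higher, at 0.55 with its bright probe set and without overlap, Atp5g1 was at 0.22 and Atp5g3 at -0.21. A dim probe set of Atp5c1, the gamma subunit, was at 0.89 (60.3 to 134 in the pituitary, against 30.8 to 98.7 elsewhere), while the bright one was at -0.49.

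**Figure D2:**
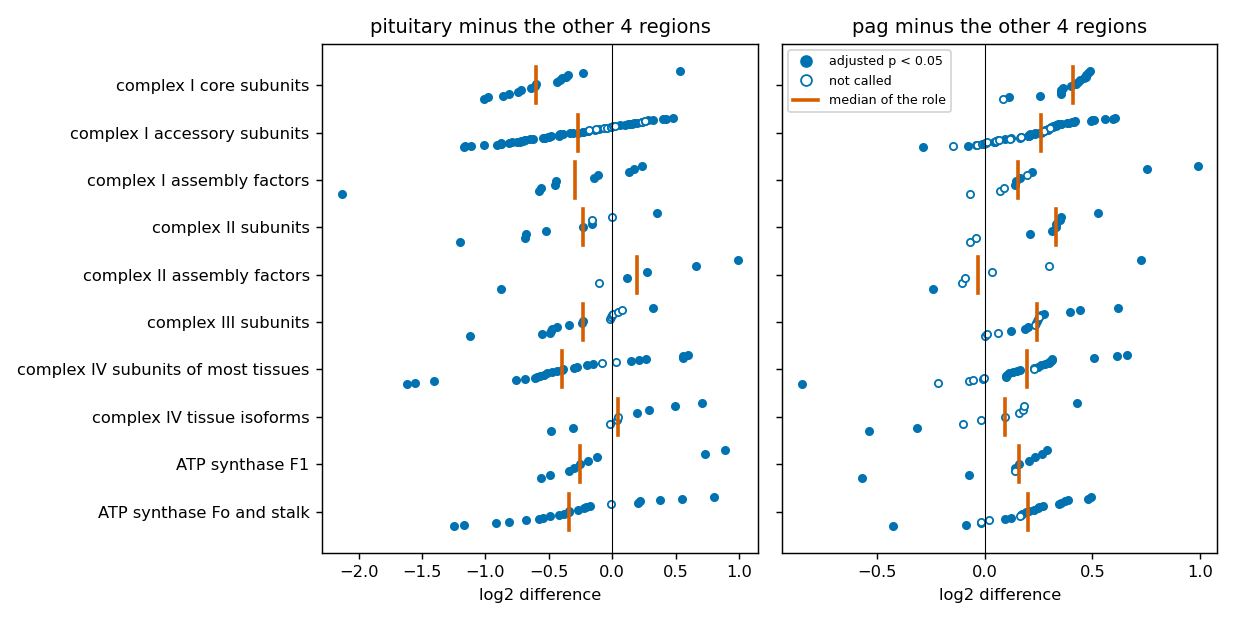
Log2 differences of the pituitary (left panel) and the pag (right panel) from the mean of the other 4 regions (x axis), 1 point per probe set, by role (rows); filled points had an adjusted p under 0.05 by limma, open points did not, and orange lines are medians of a role. In the pituitary panel the median of the complex I core subunits is -0.60 and that of the complex II assembly factors 0.20, and in the pag panel they are 0.41 and -0.03.

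Differences within a gene were mostly of one kind. Among 38 genes with several probe sets above a mean signal of 200, 32 had all of these lower or all higher in the pituitary, 1 had only some called, 3 had calls in both directions (Ndufa7, Ndufaf4 and Ndufs8) and 2 had none. With dim probe sets included, 29 of 53 genes had all probe sets called in one direction and 11 had calls in both.

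The pag lay on the other side. By limma, 123 members were higher than in the other 4 regions and 10 lower, against 22.2% of all probe sets higher and 21.2% lower, with a median of 0.23 for the members and 0.02 for all. The direction was the same in all 6 strains for 111 of the 133 called. The differences were smaller than in the pituitary: no called member changed over 2-fold, against 13 in the pituitary, and 2 did not overlap with the other arrays (0.268% of all), Ndufa9 and 1 probe set of Ndufv1. Since the pituitary forms part of the mean of the other regions, the comparison was repeated without its arrays, and 114 members were higher and 6 lower (20.6% and 14.2% of all), with a median of 0.16. Against single regions, 122 were higher and 6 lower than in the hippocampus (25.0% and 17.2% of all), 103 and 5 than in the hypothalamus (13.3% and 12.9%), and 88 and 6 than in the bnst (13.8% and 9.26%). These comparisons share the pag arrays. Summed oligodendrocyte markers were 8357 to 10360 in the pag, against 6272 to 10980 in the bnst, hypothalamus and hippocampus, and pan-neuronal markers 10160 to 12380, against 8412 to 14170. The part of these cell types in the higher signals was not tested.

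The complex I core had the highest median in the pag. Of the 16 core probe sets 15 were higher and none lower (median 0.41), the remaining one being the probe set of Ndufs8 that was higher in the pituitary, at 0.09. Of the 61 accessory probe sets 41 were higher and 2 lower (median 0.26). Complex II had 7 of 9 higher (median 0.33), complex III 11 of 16 (0.24), complex IV of most tissues 19 of 26 with 1 lower (0.19), F1 6 of 9 with 2 lower (0.16) and Fo with the stalk 16 of 22 with 2 lower (0.20).

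Ndufaf5 had 278 to 382 in the pag (median 324), against 33.1 to 344 in the other regions (median 213), a difference of 0.99 ± 0.06 (limma, adjusted p = 5.2e-17). Ndufaf2, which assists a late step of complex I assembly, had 172 to 306 (median 239), against 90.2 to 191 (median 144), a difference of 0.75 ± 0.05 (adjusted p = 1.1e-14). Sdhaf3, with its brighter probe set, had 173 to 256 (median 215), against 63.6 to 217 (median 131), a difference of 0.72 ± 0.06. These 3 assembly factors led the list with Cox5a (0.66 ± 0.03, 3182 to 3889 in the pag, against 853 to 3494) and Uqcrc1 (0.62 ± 0.03, 2010 to 2414, against 629 to 2102), all higher in 6 of 6 strains. Each of the 5 still overlapped with the other regions.

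Lower in the pag in all 6 strains were Cox6a2, an isoform of heart and skeletal muscle, and Sdhaf1. Cox6a2 was at -0.54 with probe set 1417607_at (70.3 to 133, against 70.9 to 321), while its other probe set was not called by the F test of region. Sdhaf1 was at -0.24 (143 to 228, against 121 to 434). The lower value of Sdhaf1 rests on the pituitary arrays: without them it was 0.01 (adjusted p = 0.886). Dim probe sets of Cox5b (-0.85), Atp5c1 (-0.57) and Ndufs4 (-0.29) were also lower, in each case against the direction of the same gene's bright probe sets.

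**Figure D3:**
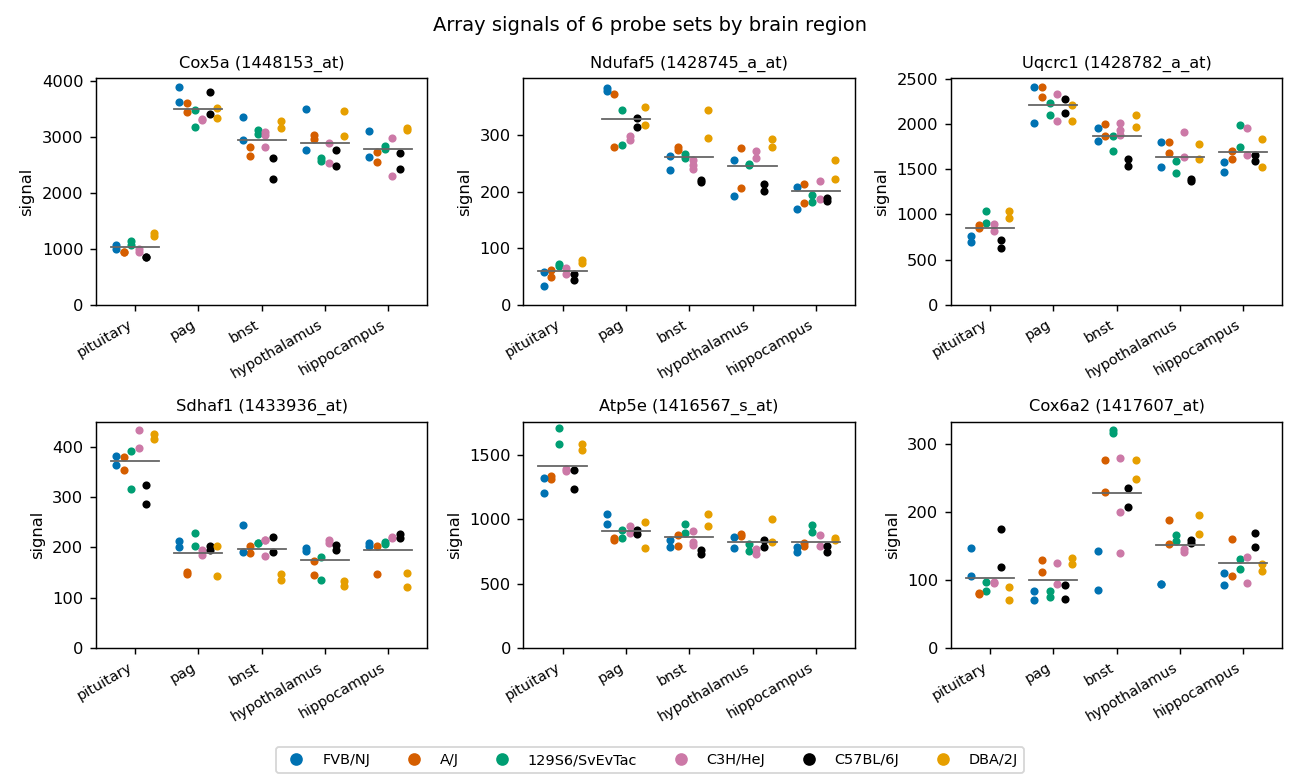
Array signals (linear, y axes from 0) of 6 probe sets by brain region (x axes), 1 point per array coloured by strain, with grey lines at the mean of a region. Cox5a, Ndufaf5 and Uqcrc1 are lowest in the pituitary and highest in the pag, Sdhaf1 and Atp5e are highest in the pituitary, and Cox6a2 is highest in the bnst.

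The plot of 6 genes by region shows these patterns array by array. For Ndufaf5, Cox5a and Uqcrc1 all 12 pituitary arrays lie below the 49 others, and for Sdhaf1 and Atp5e they lie above them.

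The 3 remaining regions differed less, and their calls depend on whether the pituitary is in the comparison. In the bnst 84 members were higher and 17 lower (16.0% and 22.6% of all), and without the pituitary 14 and 7 (8.62% and 10.4%). In the hypothalamus 60 were higher and 19 lower (17.0% of all in each direction), and without the pituitary 16 and 47 (16.3% and 13.0%). The hippocampus had 43 higher and 63 lower (19.1% and 29.3%), and 11 and 93 without the pituitary (17.5% and 23.3%), with a median of -0.12 for the members and -0.04 for all. With the signals as deposited, the hippocampus was thus the low one among the 4 other regions. It had 70 members lower and 9 higher than in the bnst (18.2% and 15.5% of all). This placement depends on the scaling. Scaling each array to one median reversed the excess in the hippocampus, with 56 higher and 17 lower (22.5% and 21.6% of all). It gave 90 and 4 in the bnst (18.2% and 14.7%) and 40 and 5 in the hypothalamus (16.4% and 13.5%). Quantile normalization gave 52 and 32 in the hypothalamus (17.5% and 16.7%). All of these scaled counts include the pituitary.

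Roles were split in the hippocampus. Of the 26 probe sets of complex IV subunits of most tissues 15 were higher and 3 lower (median 0.12), whereas of the 61 of complex I accessory subunits 10 were higher and 27 lower (median -0.11). Cox8a, a small subunit of complex IV, had 2731 to 3925 in the hippocampus (median 3420), against 1689 to 3206 in the other regions (median 2510), a difference of 0.47 ± 0.04 (limma, adjusted p = 1.2e-12), higher in 6 of 6 strains. Ndufb9 was at 0.42 (1719 to 2212, against 627 to 2356) and Ndufb1 at 0.48 (94.4 to 176, against 36.1 to 158). Lower in all 6 strains were Sdhaf4 (-0.37; 355 to 503, against 364 to 931) and Cox7a2l (-0.38 with probe set 1421772_a_at; 878 to 1251, against 990 to 2051). Without the pituitary, the split of complex IV was 5 higher and 7 lower of 26, and that of the complex I accessory subunits 4 and 40 of 61. Ndufb9 was then at 0.15, Ndufb1 at 0.20, Sdhaf4 at -0.22 and Cox7a2l at -0.25, all still called.

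In the bnst the largest difference was that of Cox6a2 with probe set 1417607_at. It read 85.4 to 321 (median 236), against 70.3 to 195 in the other regions (median 115). The difference was 0.91 ± 0.08 (limma, adjusted p = 2.1e-12) in 6 of 6 strains. The other probe set of Cox6a2, 1457633_x_at, was not called by the F test of region. With quantile normalization it was called (adjusted p = 0.0302), as it was with the floor at the 10th percentile (0.000872). Cox7b2, an isoform known from testis, was also higher, but near the floor, at 23.3 to 47.6 in the bnst, against 6.48 to 42.4 (0.74 ± 0.13). Sdhaf4 and the 3 probe sets of Cox7a2l were lower (-0.29 and -0.28 to -0.22). Without the pituitary arrays Sdhaf4 was at -0.14, and Cox7a2l lay between -0.14 and -0.08, with 1432263_a_at no longer called (adjusted p = 0.0593). The higher values of Ndufaf5 (0.58) and Cox5a (0.44 with probe set 1439267_x_at) rest on the pituitary: without its arrays they were 0.05 and 0.03 and were not called.

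In the hypothalamus, Sdhaf1 (-0.38; 124 to 214, against 121 to 434), Atp5e (-0.24; 731 to 1003, against 726 to 1706) and Atp5g1 (-0.22; 952 to 1472, against 906 to 1869) were lower in all 6 strains. Without the pituitary arrays Atp5e was at -0.06 and was no longer called (adjusted p = 0.13), and Sdhaf1 was at -0.14, still called. Cox8b, a heart and muscle isoform, was at -0.66 from signals near 0 (-8.09 to 22.9, against 3.37 to 84.3), and with the floor at the 30th percentile it was at -0.27 and was not called (adjusted p = 0.085). Ndufc2 with probe set 1460506_s_at was higher, at 0.32 (1352 to 1939, against 587 to 2058), and at 0.17 without the pituitary arrays. The higher values of Ndufaf5 (0.46) and Cox5a (0.31 to 0.41) became -0.08 and -0.09 to 0.00 without the pituitary arrays, none of them called.

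Across the 30 groups of strain and region, the bright members ran together as a description. The correlation of a probe set with the mean pattern of the 134 bright members had a median of 0.83, 101 of the 134 were over 0.5 and 16 were below 0. Over the 24 groups without the pituitary the median was 0.71, 96 were over 0.5 and 6 below 0. The points share arrays and their scaling, and each probe set contributes to the mean it is set against. Atp5e and Atp5g2 (probe set 1415980_at) had correlations of -0.61 and -0.51 over all groups, and of 0.80 and 0.68 over the groups of the 4 other regions.

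Neighbouring pathway genes that are no members were mostly lower in the pituitary and higher in the pag. Of 10 measured enzymes of the tricarboxylic acid cycle 9 were lower in the pituitary and 1 was higher (median -0.50), and all 10 were higher in the pag (median 0.33). Among the 9 were citrate synthase, Cs (-1.18 in the pituitary), and Idh3a (-1.14). Of 12 genes of cytochromes c and c1 and of complex III and IV assembly, 8 were lower and 4 higher in the pituitary (median -0.28), and 6 were higher and 3 lower in the pag (median 0.18), with Cyc1 at -1.08 and Cox17, a copper chaperone, at 0.33 in the pituitary. Of 4 outer membrane genes 3 were lower and 1 was higher in the pituitary, with Vdac1, a channel of that membrane, at -0.98.

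Of 5 known regulators, 2 were lower and 2 higher in the pituitary. Ppargc1a, which encodes PGC-1 alpha, was at -2.45 in the pituitary and 0.93 in the pag, and Esrra, which encodes ERR alpha, at -0.89 and 0.45. Gabpa was at 0.82 and Tfam at 0.37 in the pituitary, and Nrf1 was not called there (-0.05, adjusted p = 0.427). The 34 probe sets of the 19 member genes with the NRF1 motif, such as those printed above for Ndufaf5, Uqcrc1 and Sdhaf4, gave 22 lower and 6 higher calls in the pituitary (median -0.36), and the 156 probe sets of all 78 member genes with a promoter gave 101 and 33 (median -0.32). In the pag the counts were 24 higher and 3 lower with the motif (median 0.27), and 106 and 9 over all (median 0.23).

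Strain differences were fewer, and their number varied between regions. Within single regions, the F test of strain called 112 members in the pituitary (31.9% of all probe sets) and 71 in the bnst (19.3%), but 30 in the hippocampus (10.6%), 27 in the pag (13.3%) and 17 in the hypothalamus (10.9%). Regions also differed in the mice pooled per array, which the test does not take into account. The parts of region and pool size in these counts cannot be told apart. Averaged over the 5 regions, C57BL/6J differed most from the other 5 strains, with 15 members higher and 83 lower (11.7% and 10.4% of all). The median was -0.10 for the members and 0.02 for all probe sets. 129S6/SvEvTac had 49 higher and 17 lower (9.93% and 8.80%), A/J 33 and 12 (7.74% and 7.36%), DBA/2J 26 and 10 (6.00% and 7.50%), C3H/HeJ 9 and 18 (5.23% and 5.28%) and FVB/NJ 11 and 14 (5.68% and 5.32%).

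The pituitary held part of these calls. Without its arrays C57BL/6J had 14 members higher and 54 lower (9.46% and 8.25% of all), 129S6/SvEvTac 20 and 18 (7.43% and 7.48%), A/J 19 and 10 (5.80% and 5.78%), DBA/2J 13 and 6 (3.95% and 4.43%), C3H/HeJ 7 and 5 (3.45% and 3.96%) and FVB/NJ 10 and 12 (4.12% and 3.87%).

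Scaling changes part of these counts. Scaling each array to one median gave 104 lower and 7 higher members for C57BL/6J (17.2% and 5.98% of all), 4 and 94 for DBA/2J (4.17% and 17.6%), 11 and 11 for 129S6/SvEvTac (7.75% and 5.76%), 9 and 5 for A/J (6.04% and 5.10%), 3 and 7 for C3H/HeJ (3.62% and 3.83%) and 10 and 4 for FVB/NJ (3.79% and 3.85%). Quantile normalization gave 50 lower and 22 higher in C57BL/6J (10.1% and 9.46% of all), 10 and 18 in DBA/2J (4.70% and 6.54%), 14 and 32 in A/J (8.05% and 7.91%), 20 and 53 for 129S6/SvEvTac (9.64% and 9.68%), 19 and 13 in C3H/HeJ (5.20% and 5.76%) and 24 and 8 in FVB/NJ (5.75% and 5.54%). C57BL/6J had more lower than higher members under both scalings, and the excess of higher members in 129S6/SvEvTac and A/J was absent with one median.

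Between pairs of strains, C57BL/6J was again the low one, although pairs that share a strain share its arrays. It had 12 members higher and 81 lower than DBA/2J (12.0% and 9.96% of all) and 15 and 57 than FVB/NJ (8.31% and 8.14%). 129S6/SvEvTac had 78 higher and 9 lower than C57BL/6J (8.48% and 8.31%), A/J 73 and 14 (10.8% and 11.1%) and C3H/HeJ 31 and 9 (5.59% and 6.52%). 129S6/SvEvTac had 44 higher and 12 lower than C3H/HeJ (7.57% and 7.63%), 35 and 12 than FVB/NJ (8.01% and 7.69%), 17 and 17 than A/J (8.48% and 7.70%) and 15 and 15 than DBA/2J (8.22% and 6.61%). A/J had 30 and 8 against C3H/HeJ (5.81% and 5.48%), 7 and 12 against DBA/2J (5.80% and 4.73%) and 8 and 4 against FVB/NJ (3.49% and 3.62%). C3H/HeJ had 5 and 21 against DBA/2J (4.19% and 4.20%) and 11 and 10 against FVB/NJ (4.43% and 4.86%), and DBA/2J had 21 and 5 against FVB/NJ (4.69% and 5.16%).

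The lower members of C57BL/6J were called mostly in 2 regions. Within the bnst 65 members were lower and 7 higher than in the other 5 strains (4.64% and 4.86% of all), with a median of -0.19, and within the pituitary 73 and 7 (6.86% and 8.93% of all), with a median of -0.17. In the hippocampus 7 were lower and 7 higher (1.53% and 2.17%), in the hypothalamus 4 and 12 (1.11% and 1.95%), and in the pag 2 and 9 (1.39% and 2.01%). The median deviation of the members was -0.06 and -0.11 on the 2 C57BL/6J bnst arrays, against -0.01 to 0.16 on the 11 bnst arrays of the other strains. In the pituitary it was -0.45 and -0.41, against -0.32 to -0.11 on the 10 others. In both regions the C57BL/6J arrays were thus below all others.

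Array medians and marker sums were set beside this. The medians of the C57BL/6J pituitary arrays, 67.1 and 64.0, were the highest of the region (48.2 to 63.5 on the others), and those of its bnst arrays, 56.2 and 54.9, lay within the 42.6 to 59.6 of the other strains. Hypothalamic neuron markers in the bnst summed to 4685 and 6586, against 6037 to 10830, and pan-neuronal markers to 9565 and 10550, against 9520 to 12820. In the pituitary, pan-neuronal markers summed to 3253 and 3467, against 3390 to 4784, and endocrine markers to 62870 and 65540, against 50150 to 71280. Hypothalamic neuron markers in the pituitary summed to 1091 and 1206, against 1223 to 2331, and striatal neuron markers to 557 and 612, against 671 to 1035, both below all other strains. Skeletal muscle markers there summed to 129 and 141, against 22.9 to 126. In the bnst, choroid plexus markers summed to 668 and 2731, against 182 to 9471 with a median of 6326, and those of smooth muscle and pericytes to 1095 and 1158, against 647 to 1100. The part of scaling or of the cells dissected in the lower signals was not tested.

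By role, the lower calls of C57BL/6J over all regions comprised 25 of the 61 complex I accessory probe sets, 15 of 22 of Fo and stalk, 13 of 26 of complex IV, 9 of 16 of complex III, 6 of 16 of the complex I core, 5 of 9 of F1, 5 of 9 of complex II and 5 of 10 of the complex I assembly factors. Neither the tissue isoforms nor the complex II assembly factors had any. The differences were small: of its 98 called members 6 differed by over 0.5 on the log2 scale.

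The 129S6/SvEvTac pituitary was the opposite case, with 54 members higher and 4 lower than in the other strains' pituitaries (5.36% and 3.49% of all) and a median of 0.17. Its 2 pituitary arrays had pan-neuronal sums of 4185 and 4784, against 3253 to 4011, and microglia sums of 313 and 323, against 424 to 571, without overlap in either. Endocrine sums were 57320 and 71280, against 50150 to 65540, and striatal neuron sums 771 and 1035, against 557 to 951. The part of these cell types was not tested. FVB/NJ had 17 higher and 8 lower in the pag (3.15% and 3.58%), with a median of 0.12.

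**Figure D4:**
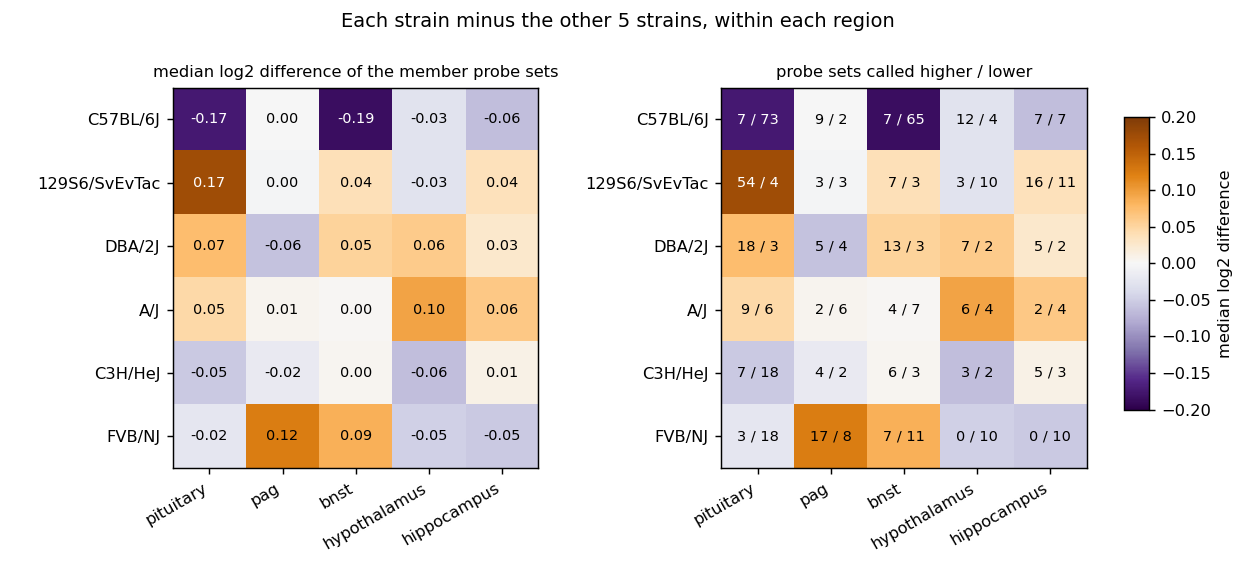
Each strain (rows) minus the other 5 strains within each region (columns): median log2 difference of the 184 probe sets (left) and number called higher / lower by limma (right), coloured by the median. C57BL/6J is lowest in the bnst (-0.19) and the pituitary (-0.17), and 129S6/SvEvTac is highest in the pituitary (0.17).

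The heat maps of strain by region show that no strain kept one sign with many calls in all 5 regions. Single probe sets did so, among them probe sets of Uqcr10, Ndufc2, Ndufs5 and Ndufv1. The brightest probe sets of Uqcr10, Ndufc2 and Ndufv1 did not show these differences. Uqcr10 and Ndufc2 were picked for display with their strain differences in these same data already known. Their p-values below are thus descriptive.

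Uqcr10 encodes a small subunit of complex III. Probe set 1434340_at read -3.80 to 16.8 on the 10 A/J arrays and -5.84 to 14.3 on the 10 FVB/NJ arrays, at or near the floor of 12.8. It read 137 to 370 in 129S6/SvEvTac, 144 to 318 in C3H/HeJ, 134 to 318 in C57BL/6J and 171 to 331 in DBA/2J. Every array of A/J and FVB/NJ was thus far below every array of the other 4 strains, in all 5 regions. Differences from the other 5 strains were -3.25 ± 0.05 for A/J (limma, adjusted p = 1.1e-33) and -3.33 ± 0.05 for FVB/NJ (4.9e-34), and since both strains lie near the floor the size of these values depends on it.

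Between A/J and FVB/NJ the difference was 0.06 ± 0.06 (adjusted p = 0.708). Among the other 4 strains C57BL/6J was the lowest, at -0.37 ± 0.06 against DBA/2J (adjusted p = 1.9e-05), with 129S6/SvEvTac at 0.32 (1.9e-04) and C3H/HeJ at 0.22 (0.0116) above it. 129S6/SvEvTac, C3H/HeJ and DBA/2J did not differ beyond their spread (adjusted p = 0.126 to 0.609). Region mattered too, with pag signals of 300 to 370 in these 4 strains and pituitary signals of 134 to 182.

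The other probe sets of Uqcr10 did not show this gap. Probe set 1424364_a_at, with the highest mean (1018), was called for C57BL/6J alone, at -0.12 (adjusted p = 0.0392). Probe set 1434341_x_at was at -0.16 in A/J, -0.24 in FVB/NJ, 0.33 in 129S6/SvEvTac and 0.25 in DBA/2J, with A/J and FVB/NJ again at the low end but with overlapping signals. The call of A/J was lost when any of 6 of its 10 arrays was left out (-0.17 to -0.10), and those of A/J and FVB/NJ when each array was scaled to one median. Whether DNA differences between the strains lie under the probes of 1434340_at was not tested.

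Ndufc2 is an accessory subunit of the membrane arm of complex I. Its probe set 1416366_at split the strains into 2 sets of 3: it read 742 to 1087 in 129S6/SvEvTac (median 953), 807 to 1155 in A/J (961) and 761 to 1153 in FVB/NJ (912). In C3H/HeJ it read 1422 to 1961 (median 1649), in C57BL/6J 1489 to 1906 (1668) and in DBA/2J 1477 to 2033 (1646). The highest array of the first set was below the lowest of the second. By limma, all 9 pairs across the sets differed by 0.78 to 0.89 on the log2 scale (SE 0.03), and no pair within a set was called (adjusted p = 0.410 to 0.839), with differences of at most 0.06. The split held in every region, and the interaction was not called (adjusted p = 0.150).

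As with Uqcr10, the other bright probe sets of the gene gave other patterns. Probe set 1455036_s_at, the brightest with a mean of 1920, was not called by the F test of strain (adjusted p = 0.485, and 0.0189 with quantile normalization). Probe set 1460506_s_at was low in the pituitary of C3H/HeJ (668 and 587) and DBA/2J (693 and 626), against 984 and 995 in C57BL/6J, 1020 on both arrays of FVB/NJ, 1296 and 1187 in A/J and 1279 and 1441 in 129S6/SvEvTac. Within the pituitary C3H/HeJ was at -0.71 (adjusted p = 9.7e-09) and DBA/2J at -0.62 (1.4e-07). In the other 4 regions C3H/HeJ lay between -0.29 and -0.18 and DBA/2J between -0.35 and 0.10. C3H/HeJ and DBA/2J, which were high with probe set 1416366_at, were thus low with this one. Probe set 1431670_at read at most 18.9 and was above the floor on 1 array. The part of probe sequence in these opposite patterns was not tested.

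**Figure D5:**
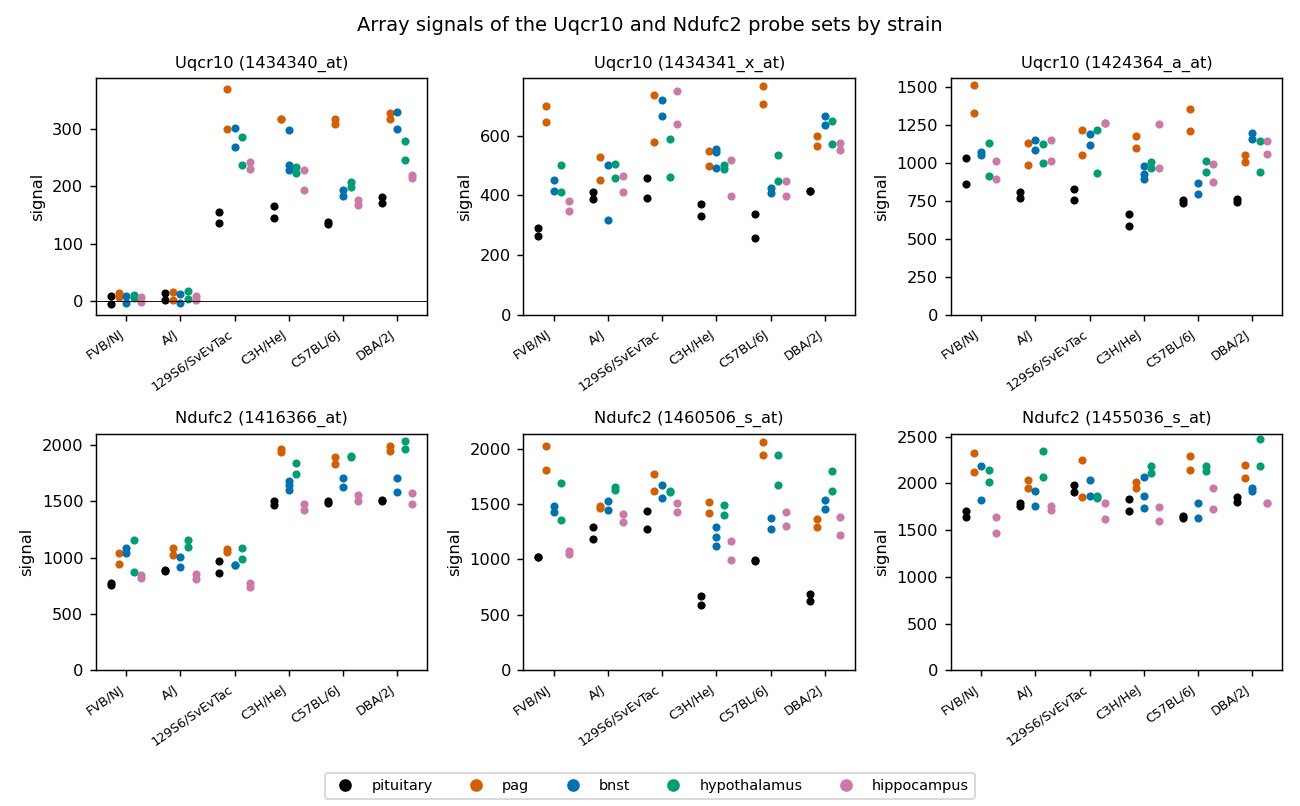
Array signals (linear, y axes) of the Uqcr10 and Ndufc2 probe sets by strain (x axes), 1 point per array coloured by region. Probe set 1434340_at of Uqcr10 reads at most 16.8 on the A/J and FVB/NJ arrays and at least 134 on all others, and probe set 1416366_at of Ndufc2 reads at most 1155 in 3 strains and at least 1422 in the other 3.

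In the plot of the Uqcr10 and Ndufc2 probe sets by strain, the gaps of 1434340_at and 1416366_at are seen in every region, while the remaining probe sets of the same genes overlap between strains.

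Most complex I probe sets were not called in FVB/NJ: 2 of 16 core probe sets were lower and none higher, 4 of 61 accessory ones were lower and 3 higher, and 2 of 10 of the assembly factors were lower and 1 higher. Ndufs5, an accessory subunit on the intermembrane side, read 226 to 521 in FVB/NJ (median 413), against 536 to 1512 in the other strains (median 1284), the only member of this strain without overlap (0.0704% of all). Its difference was -1.49 ± 0.04 (limma, adjusted p = 3.1e-25), and within the 5 regions it lay between -1.65 and -1.31. Ndufs5 has a single probe set among the members, so no other probe set can be set beside it. The part of probe sequence in its difference was not tested. 129S6/SvEvTac was second lowest in the 4 regions other than the pituitary, with 536 to 899, against 1199 to 1512 in the strains A/J, C3H/HeJ, C57BL/6J and DBA/2J. In the pituitary 129S6/SvEvTac had 694 and 711, within the 560 to 938 of those strains.

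Ndufv1 carries the NADH binding site. Probe set 1415966_a_at read 143 to 442 in FVB/NJ (median 344), against 387 to 1150 (median 913), a difference of -1.45 ± 0.04 (limma, adjusted p = 2.0e-26), and 1456015_x_at was at -1.13 ± 0.03. The brightest probe set of the gene, 1415967_at, was at 0.01 ± 0.03 (adjusted p = 0.874; 808 to 1702 in FVB/NJ). It was named after its values were seen, as were Ndufv3 (-0.79, 793 to 1189 in FVB/NJ) and Ndufaf1 (-0.51). Of the 4 probe sets of Ndufs4, the bright one was low in FVB/NJ (-0.54; 457 to 750) and A/J (-0.47; 508 to 713), and the other 3 were not called in FVB/NJ.

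In C57BL/6J, Ndufa12, an accessory subunit, had probe sets in opposite directions. Probe set 1455806_x_at read 1614 to 2708 in C57BL/6J (median 2335), against 1077 to 1717 in the other strains (median 1332), a difference of 0.71 ± 0.03 (limma, adjusted p = 4.9e-20), and 1418814_s_at was at -0.27. The part of probe sequence in these differences within Ndufv1 and Ndufa12 was not tested. With 1455806_x_at, the C57BL/6J arrays were above those of all other strains within each region. In DBA/2J, Ndufb1 was at -0.67 ± 0.09 (36.1 to 99.7, against 44.6 to 176; adjusted p = 2.5e-07).

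Further strain differences came from dim probe sets. Sdha with probe set 1433293_at was at 1.94 in C57BL/6J (64.4 to 127) and 1.73 in DBA/2J (61.9 to 111) and at -0.88 to -1.23 in FVB/NJ, A/J and C3H/HeJ, while its 2 bright probe sets, with means of 1886 and 2002, were at -0.10 and 0.07 in C57BL/6J and at 0.08 and 0.25 in DBA/2J. Atp5g1 with 1444874_at was at -1.11 in A/J and -0.82 in C3H/HeJ, Atp5g2 with 1456128_at at -0.87 in C57BL/6J, and Atp5j2 with 1443495_at at -0.69 in 129S6/SvEvTac (17.2 to 70.4, against 51.7 to 109). The bright probe sets of Atp5g1 and Atp5j2 were not called in these strains, apart from 0.11 for Atp5g1 in A/J, and that of Atp5g2 was at -0.21 in C57BL/6J.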

How the data were processed

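All 61 arrays were used, 1 per sample, grouped by the strain and region in the sample labels. The authors had isolated RNA with Trizol from stored tissue of 1 mouse or pools of up to 5, hybridised it to Affymetrix 430 2.0 arrays and computed absolute analysis signals with TeraGenomics. The deposited table holds these signals as linear intensity values, and they were used without further normalization. The scaling target and the program's version are not given in the sources used here, nor are scan dates, and the detection calls that the study used to keep genes scored Present were not used here. The number of arrays limits the precision.

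Signals were set to a floor of 12.78, the 20th percentile of all values, and taken to log2. A limma model (version 3.58.1, R 4.3.3) with 1 mean for each of the 30 groups and a mean-variance trend was fitted to 44065 probe sets, after 64 control probe sets and 972 at the floor on all arrays were left out (residual df 31). Each region was set against the mean of the other 4, each strain against that of the other 5, and Benjamini-Hochberg adjustment ran over all probe sets tested within each contrast. A difference with an adjusted p under 0.05 is a call. Differences of dim probe sets are understated by the floor. The methods' regression on strain and region was run on linear signals at p under 0.01. Code was tested on simulated data. Tables were made with Python 3.11.15, numpy 2.4.6, scipy 1.17.1 and pandas 2.3.3.

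Genes were named through GEO's platform annotation, in which 34945 probe sets name 1 gene, 932 several and 9160 none. Members, roles, pathway lists and marker lists were chosen with earlier results of these data known, as was the naming of Uqcr10 and Ndufc2. A list gene outside the members is given by its brightest single-gene probe set. Named individually were all probe sets of Uqcr10, of Ndufc2 and of the complex IV tissue isoforms, the 5 largest calls in each direction per region with the same sign in all 6 strains, the 5 largest per strain with the same sign in all 5 regions, and the 5 smallest interaction p-values, in all 53 probe sets. Others named were chosen after their values were seen.

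Alternatives were floors at the 10th and 30th percentiles (4.62 and 21.91), no filter, only probe sets above the median signal, scaling to one median, quantile normalization, no trend, no pituitary arrays, a replicate block and leaving out each array. No label says that equal replicate numbers mark related arrays, apart from the size of the pools in the bnst. The differences between replicates correlated between regions of the same strain with a median r of 0.0149 (-0.327 to 0.412). Positive and negative r cancel in such a median, so it cannot show whether regions share mice. Whether they do was not tested, and the main model treats all arrays as independent.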

Additional observations from a re-analysis of the deposited data

Results flagged for a closer look

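Strain differences that varied with region, by limma's interaction test, were called in 43 of the 184 members (11.3% of all probe sets). Without the pituitary arrays 4 were called (2.35% of all). Ndufc2 with probe set 1460506_s_at had the smallest adjusted p, 6.35e-07, from low pituitary signals in C3H/HeJ (668 and 587) and DBA/2J (693 and 626), against 984 to 1441 in the other 4 strains.

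Uqcr10 with probe set 1434340_at had an interaction p of 0.00141, which was 0.997 with the lower floor and 0.244 without the pituitary arrays. In the 4 strains in which it was well above the floor, C57BL/6J was among the low strains in the bnst (194 and 184, against 229.5 to 330.5 in the other 3) but not in the pag (308 and 318, against 300 to 370). Its other probe sets had p-values of 0.00849 (1434341_x_at) and 0.0141 (1424364_a_at).

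Ndufs5 had an interaction p of 0.00326, and 0.481 without the pituitary arrays. The difference of 129S6/SvEvTac from the other strains was 0.25 in the pituitary and -0.59 to -0.29 in the other regions.

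Uqcrfs1, the Rieske iron-sulfur protein of complex III, had an interaction p of 0.00459, and 0.0527 without the pituitary. In the pituitary it read 774 and 923 in C57BL/6J, against 1204 and 1304 in 129S6/SvEvTac, and in the pag 1395 and 1450 in C57BL/6J, against 1079 and 1247 in 129S6/SvEvTac.

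Cox6a2 with probe set 1417607_at had an interaction p of 0.00509, and 0.198 without the pituitary. In the bnst it read 85.4 and 143 in FVB/NJ, against 141 to 321 in the other strains.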

How the results depend on the processing

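Of 7260 recomputed values of 104 results for named probe sets, 7210 kept their direction and call, 42 lost the call, 5 gained it and 3 reversed. Most of these values came from 61 settings that each left out a single array. Most named probe sets had also been picked as the largest calls with a constant sign. Most values could thus hardly change, and the share kept does not measure how firm the results are. More of the changes came from the other settings than from leaving out arrays. The 3 reversals came without the pituitary arrays: Ndufaf5 and Cox5a (1448153_at) in the hypothalamus became -0.0783 and -0.0858, and Sdhaf1 in the pag became 0.0114. Without these arrays the members called were 14 higher and 7 lower in the bnst, 11 higher in the hippocampus, 16 higher and 47 lower in the hypothalamus, 6 lower in the pag, 38 in 129S6/SvEvTac, 29 in A/J, 12 in C3H/HeJ, 19 in DBA/2J, 85 for the strain F test (29.6% of all) and 4 for the interaction (2.35% of all). Scaling to one median gave 4 lower in the bnst, 17 lower in the hippocampus, 5 lower in the hypothalamus, 18 higher in the pituitary, 22 in 129S6/SvEvTac, 14 in A/J, 10 in C3H/HeJ, 98 in DBA/2J, 14 in FVB/NJ and 23 for the interaction. Quantile normalization gave 32 lower in the hypothalamus, and the fit without a trend 26 for the interaction. The cause of these changes was not tested. Shares over all probe sets for these region and strain counts stand with the results above. Those for the interaction with one median and without a trend, for single arrays left out and for the replicate block are not given.

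Leaving out single arrays gave 34 to 40 higher and 116 to 119 lower members for the pituitary, 120 to 126 and 6 to 11 for the pag, 76 to 88 and 13 to 20 for the bnst, 50 to 68 and 14 to 22 for the hypothalamus, and 40 to 48 and 56 to 68 for the hippocampus. The 6 lower in the pag came without replicate 1 of the FVB/NJ pag. For strains it gave 83 to 104 calls (C57BL/6J), 47 to 83 (129S6/SvEvTac), 29 to 41 (DBA/2J), 30 to 49 (A/J), 15 to 35 (C3H/HeJ, 15 without replicate 1 of its hippocampus) and 19 to 30 (FVB/NJ). The F tests gave 164 to 168 (region), 123 to 136 (strain) and 33 to 61 (interaction), and the methods' regression 16 to 23 strain-specific and 145 to 152 region-specific members.

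The differences between replicates 2 and 1 correlated between groups with a median r of -0.00464 over 406 pairs (-0.416 to 0.412, 78 over 0.1). Most of these pairs join different strains, which cannot share mice. Between regions of the same strain the median was 0.0149 over 56 pairs (-0.327 to 0.412, 12 over 0.1). Whether single pairs share mice was not tested. In the bnst, where the number goes with the size of the pool, the median was -0.05 over 10 pairs (-0.32 to 0.205). With the replicate block the counts were 39 higher and 118 lower for the pituitary, 124 and 10 for the pag, 80 and 16 for the bnst, 61 and 18 for the hypothalamus and 45 and 63 for the hippocampus. For strains they were 15 and 83 (C57BL/6J), 49 and 18 (129S6/SvEvTac), 27 and 9 (DBA/2J), 35 and 12 (A/J), 11 and 20 (C3H/HeJ) and 11 and 14 (FVB/NJ), with 49 for the interaction, and the methods' regression gave 18 strain-specific and 150 region-specific members. Differences of probe sets at or near the floor are limited by it.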
